A study of Mus musculus with 6 samples.

Results

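Expression of 9 genes for enzymes that make or recycle the building blocks of DNA and RNA was compared between ΔrsCBE and wild-type (WT) mice, in small pre-B cells purified by flow cytometry. The genes are Rrm1, Rrm2, Rrm2b, Tyms, Tk1, Dut, Dck, Umps and Cad. They were taken by gene symbol from a table of 49997 genes, where all 9 were found. Counts were high enough to test 7 of them, as for 7792 genes in all. Tyms and Tk1 had too few reads and are described by their counts.

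The libraries came from bone marrow of C57BL/6 mice aged 6 to 12 weeks, with 3 libraries of WT and 3 of ΔrsCBE mice, and no treatment is given for either genotype. These cells are precursors of B cells, mostly no longer dividing, that rearrange their light chain genes. The prefix Δ stands for a deletion, and the title of the series is about chromatin looping by CTCF and receptor editing, the replacement of a light chain after a first rearrangement. Which interval ΔrsCBE removes is not given in the sources used here, and whether an animal or a pool of animals gave each library is not given either, so p-values measure the spread between these libraries.

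Deoxynucleotides are made chiefly by ribonucleotide reductase, which converts ribonucleotides into deoxyribonucleotides. The enzyme pairs a large subunit, encoded by Rrm1, with a small subunit, encoded by Rrm2 in dividing cells or by Rrm2b, a target of p53 that also serves resting cells. Thymidylate is then made by thymidylate synthase (Tyms) or recovered from thymidine by thymidine kinase (Tk1), while Dut removes dUTP and Dck recovers deoxycytidine and purine deoxynucleosides. Cad and Umps carry out most steps of the synthesis of uridine monophosphate. In lymphocyte precursors this supply is known to rise and fall with the cell cycle, and Dck is needed for normal lymphocyte development.

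The stretch before the start site is shown for 3 genes: for Rrm2 and Rrm1, the members whose values did not overlap between the genotypes among those tested, and for Dck, an abundant member whose values did overlap. Sequences are from the RefSeq promoter table on GRCm38.p6, plus strand, 5′ to 3′, and end before the first base of any GENCODE M21 transcript of the gene. They cover chr12:24708004-24708240 (237 bases), chr7:102441445-102441694 (250 bases) and chr5:88764763-88764995 (233 bases). Capitals mark matches on either strand to CCAAT (the box bound by NF-Y), TCCCGC (the core of E2F sites) and GGGCGG (the GC box bound by Sp1).
Rrm2: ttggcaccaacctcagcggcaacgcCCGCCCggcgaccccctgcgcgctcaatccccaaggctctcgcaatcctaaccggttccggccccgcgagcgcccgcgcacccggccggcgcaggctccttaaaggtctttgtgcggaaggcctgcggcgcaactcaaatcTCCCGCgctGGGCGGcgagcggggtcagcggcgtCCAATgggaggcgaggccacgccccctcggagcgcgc
Rrm1: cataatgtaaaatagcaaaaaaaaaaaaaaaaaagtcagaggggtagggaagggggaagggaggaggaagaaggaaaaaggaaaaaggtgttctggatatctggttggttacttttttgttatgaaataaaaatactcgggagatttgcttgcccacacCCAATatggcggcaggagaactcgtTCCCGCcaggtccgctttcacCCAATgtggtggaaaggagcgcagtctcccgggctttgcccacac
Dck: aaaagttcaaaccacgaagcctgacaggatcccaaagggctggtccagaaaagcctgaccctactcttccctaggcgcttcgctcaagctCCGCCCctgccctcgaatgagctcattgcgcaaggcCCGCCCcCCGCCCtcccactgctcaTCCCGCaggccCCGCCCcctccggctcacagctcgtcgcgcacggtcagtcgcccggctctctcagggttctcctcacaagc

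In these stretches Rrm2 had 1 CCAAT, 1 E2F core and 2 GC boxes, Rrm1 had 2 CCAAT, 1 E2F core and 0 GC boxes, and Dck had 0 CCAAT, 1 E2F core and 4 GC boxes. Over the whole windows in the table, 250 bases before to 50 after the start, 8 of the 9 genes had an entry. Rrm2b had none, so its promoter was not examined. CCAAT occurred in 2 of the 8, Rrm1 and Rrm2, and in 39.6% of 6000 windows of tested genes. TCCCGC occurred in 6 of the 8, all but Tyms and Tk1, and in 37.8% of those windows. GGGCGG occurred in 7 of the 8, all but Rrm1, and in 67.3%. The longer E2F forms TTTCCCGC, TTTGGCGC, TTTCGCGC and TTTGCCGC occurred in 0 of the 8 and in 4.72% of the windows of tested genes, and TTTGAA (the CHR element) in 2, Dck and Umps, and in 12.3%. Matches to TCCCGC and GGGCGG can overlap, as they do in Dut. These matches describe letters in a window, not bound sites.

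Library totals ranged from 428106 to 1300805 counts, which is shallow, and the detection floor of 3 counts corresponded to 2.32 to 7.17 CPM (counts scaled to a common total with TMM factors) depending on the library. The floors cover counting error only. All 12 genes of a B-precursor marker list were detected, Pax5 with 15989 and Rag1 with 16870 reads across the 6 libraries. Of 10 erythroid and 10 T and NK cell markers, 8 and 8 were listed at 0 throughout. Of 10 myeloid markers 3 were listed at 0, and the summed level of that list was 54.1 to 86.0 CPM in WT and 60.2 to 72.5 CPM in ΔrsCBE libraries. Most of that sum was Itgam (50.2 to 81.2 CPM in WT, 46.0 to 59.4 in ΔrsCBE), whereas Lyz2 and S100a9 had 0 counts in every WT library and 2, 4 and 2, and 2, 1 and 3 counts, in ΔrsCBE replicates 1 to 3. The part of myeloid cells in the results was not tested. Sex is not labelled and was not balanced: Xist and the Y-linked genes gave a male pattern in all 3 WT libraries and in ΔrsCBE replicate 1, and a female pattern in ΔrsCBE replicates 2 and 3. Sex and genotype are therefore partly confounded, and values from the male libraries alone, 3 against 1, are given for the members and ratios. Fold changes of other genes are given for all 6 libraries only, and the part of sex in them was not tested.

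The first question was which of these enzymes differed between the genotypes. Rrm2, the small subunit of the S-phase form of ribonucleotide reductase, fell in ΔrsCBE cells, and it was the only member past the threshold. Its partner Rrm1 was also lower in each ΔrsCBE library than in any WT library but missed the threshold, while Rrm2b, the alternative small subunit, differed by less than the spread between libraries. The threshold was a false discovery rate (FDR, the Benjamini-Hochberg adjusted p-value of edgeR's quasi-likelihood test over all tested genes) under 0.05. It was passed by 1 of the 7 tested members, against 1.69% of all tested genes (1.49% lower and 0.205% higher). Fold changes were below 0 in 5 of the 7 members (48.2% of all tested genes). The members' median log2 fold change was -0.34, beside 0.01 over everything tested.

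Rrm2 (chromosome 12, 24708241 to 24714146, plus strand, GENCODE M21 on GRCm38, protein coding, as are all members) had 119, 129 and 122 CPM in the WT libraries, here and below in the order of replicates 1 to 3. In the ΔrsCBE libraries it had 67.3, 80.5 and 51.6 CPM. The groups did not overlap, and the highest ΔrsCBE library lay well under the lowest WT library. The means were 123 ± 5.37 and 66.5 ± 14.5 CPM (SD, n = 3), for a log2 fold change of -0.87 ± 0.18 (standard error) and a 95% interval of -1.24 to -0.50 (edgeR FDR 0.00694). The drop was as large among the male libraries, 3 against 1, with a log2 fold change of -0.86. That comparison holds no spread between ΔrsCBE libraries. The call did depend on single libraries: without WT replicate 3 the edgeR FDR was 0.0713 at a log2 fold change of -0.88, without ΔrsCBE replicate 3 it was 0.0928 (at -0.73), and with sex as a covariate 0.112 at -0.87.

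Rrm1, the large subunit that holds the catalytic site (chromosome 7, 102441695 to 102469771, plus strand), had 161, 191 and 163 CPM in the WT libraries. Its values in the ΔrsCBE libraries were 124, 137 and 78.7 CPM. The groups again did not overlap, which held for 2 of the 7 tested members, Rrm1 and Rrm2, both lower in ΔrsCBE (16.2% of all tested genes, of which 8.95% lower and 7.24% higher). Means were 172 ± 16.8 and 113 ± 30.6 CPM (SD, n = 3), and the log2 fold change was -0.57 ± 0.17 (standard error) with a 95% interval of -0.93 to -0.22. Its edgeR FDR was 0.107, above the threshold. Rrm1 is a borderline case, since the edgeR FDR was 0.0457 with no count filter, 0.0464 with a filter of 1 CPM in 3 libraries and 0.0157 without ΔrsCBE replicate 2. Without ΔrsCBE replicate 3, the lowest library, the log2 fold change was -0.38 (edgeR FDR 0.579), and in the male libraries it was -0.45. The noncoding gene Gm45399 lies within Rrm1 on the same strand. It was not among the counted genes, and how reads there were counted is not given in the sources used here.

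Rrm2b, which encodes the small subunit induced by p53 (chromosome 15, 37923952 to 37961318, minus strand), showed 245, 258 and 230 CPM in the WT libraries. The ΔrsCBE libraries had 232, 264 and 261 CPM, inside or just above that range. Means were 244 ± 14.0 and 252 ± 17.2 CPM (SD, n = 3), giving a log2 fold change of 0.06 ± 0.13 (standard error) and a 95% interval of -0.20 to 0.32 (edgeR FDR 0.942). That interval does not reach the log2 fold change of Rrm2. The sign was the opposite in the male libraries (-0.06), also within error. Rrm2b shares its locus with the pseudogene Gm3362 and with Gm49085 on the opposite strand (74 and 54 counts in all), and reads could be divided among them.

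**Figure D1:**
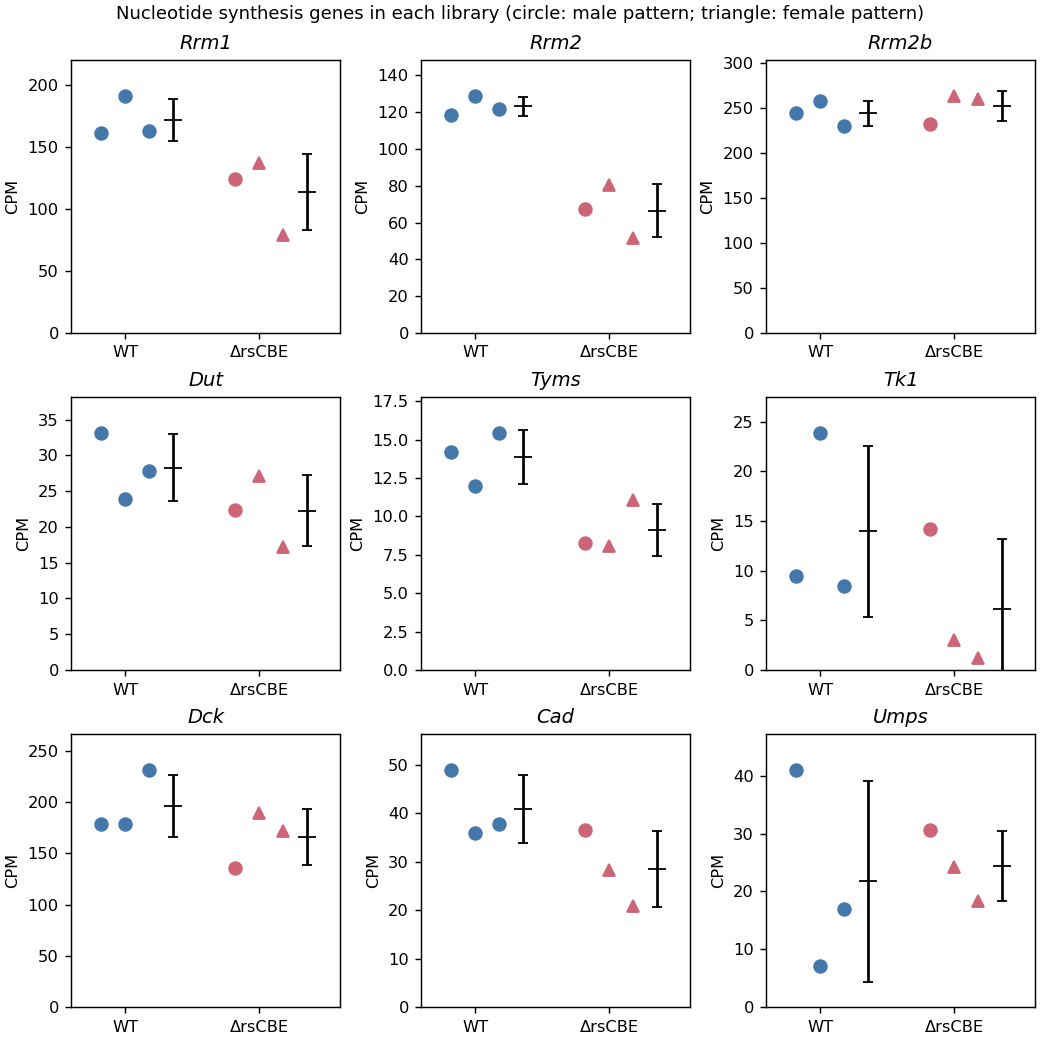
CPM of each of the 9 genes (vertical axis, from 0) in the 3 WT and 3 ΔrsCBE libraries, placed by replicate number, with circles for libraries of male and triangles for libraries of female pattern. Black marks give the mean and SD (for Tk1 the lower bar is cut at 0). Rrm2 lies at 119 to 129 CPM in WT and 51.6 to 80.5 CPM in ΔrsCBE, while Rrm2b covers nearly the same range in both.

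The balance between subunits was then compared within libraries, where scaling plays no part. Counts were divided by the length of the gene's principal coding transcript in GENCODE M21, 2.193 kb for Rrm2, 4.561 kb for Rrm2b and 3.997 kb for Rrm1. The ratio of Rrm2b to Rrm2 was 0.994, 0.962 and 0.907 in the WT libraries, so the small subunits had nearly equal levels per kb of these transcripts. That parity depends on the length chosen. Divided by all annotated exons, Rrm2b averaged 27.2 and Rrm2 34.2 CPM per kb over all libraries. Lengths cancel in the comparison of genotypes. In the ΔrsCBE libraries it was 1.66, 1.58 and 2.43, above every WT library. The log2 ratio went from -0.07 ± 0.07 to 0.89 ± 0.34 (SD, n = 3), a 1.94-fold higher ratio with p = 0.1 in an exact two-sided permutation test, the smallest that 3 libraries against 3 allow. The difference in log2 ratio was 0.96, and it was 0.80 in the male libraries. It lay between 0.76 and 1.08 (log2) when any 1 library was left out. Most of this difference is the fall of Rrm2 (log2 fold change -0.87) read again from the same counts, since Rrm2b was at 0.06. The ratio is not a result apart from that fall.

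The ratio of Rrm2 to Rrm1 moved less. It was 1.34, 1.23 and 1.37 in the WT libraries and 0.989, 1.07 and 1.20 in the ΔrsCBE libraries. These groups did not overlap either, with WT replicate 2 and ΔrsCBE replicate 3 close to each other. The log2 ratio went from 0.39 ± 0.08 to 0.11 ± 0.14 (SD, n = 3), a difference of -0.28 with p = 0.1 in the same exact permutation test, again the smallest possible. In the male libraries the difference was -0.405. These 2 ratios share the Rrm2 counts and were the only ratios computed. Adjusted over both tests, the exact permutation p-values are also 0.1.

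**Figure D2:**
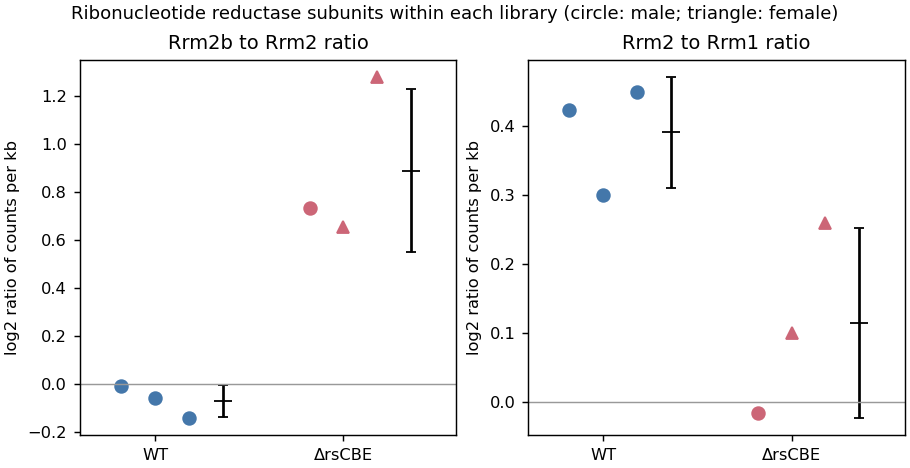
Log2 ratio of counts per kb within each library for Rrm2b to Rrm2 (left) and Rrm2 to Rrm1 (right), with circles for male and triangles for female libraries and black marks for mean and SD. With the principal transcript lengths, the WT libraries lie just under 0 for Rrm2b to Rrm2 and all 3 ΔrsCBE libraries above 0.6.

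The enzymes that act around thymidylate were weakly expressed. Dut, which hydrolyses dUTP and keeps uracil out of DNA (chromosome 2, 125247190 to 125258608, plus strand), gave 33.2, 23.9 and 27.8 CPM for WT and 22.4, 27.2 and 17.2 CPM for ΔrsCBE. The groups overlapped, with 10 to 36 reads per library behind these values. The log2 fold change was -0.34 with a 95% interval of -0.97 to 0.28 (edgeR FDR 0.784), and -0.35 in the male libraries.

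Tyms, which methylates dUMP to thymidylate (chromosome 5, 30058202 to 30073617, minus strand), showed 9, 5 and 20 counts in the WT libraries. The ΔrsCBE libraries had 7, 8 and 9 counts. Scaled to depth, these were 14.2, 12.0 and 15.5 CPM against 8.26, 8.05 and 11.1 CPM, so the ΔrsCBE libraries were all below the WT libraries, on few reads. In the fit without a count filter the log2 fold change was -0.65 with a 95% interval of -1.55 to 0.26, which includes 0 (edgeR FDR 0.751). In the male libraries the log2 fold change was -0.78. The pseudogene Tyms-ps had 7 counts in all, and reads of the pair could be exchanged.

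Tk1, the cytosolic thymidine kinase (chromosome 11, 117815526 to 117826092, minus strand), showed 6, 10 and 11 counts for WT and 12, 3 and 1 for ΔrsCBE. The male ΔrsCBE library thus had 14.2 CPM, within the WT range of 8.50 to 23.9 CPM, and the female ΔrsCBE libraries had 3.02 and 1.23 CPM, at or under the floor. Without a count filter the log2 fold change was -0.98 with a 95% interval of -2.03 to 0.08 (edgeR FDR 0.751), and it was 0.23 in the male libraries. A difference in Tk1 was not detectable at this depth. The gene overlaps Afmid on the opposite strand.

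Dck, the kinase that recovers deoxycytidine, deoxyadenosine and deoxyguanosine (chromosome 5, 88764996 to 88783281, plus strand), was among the most abundant members. It had 179, 179 and 232 CPM in the WT libraries and 136, 189 and 172 CPM in the ΔrsCBE libraries. The groups overlapped, with the male ΔrsCBE library the lowest of the 6. Means were 197 ± 30.5 and 166 ± 27.3 CPM (SD, n = 3), which gave -0.27 as the log2 fold change with a 95% interval of -0.58 to 0.04 (edgeR FDR 0.594). The log2 fold change was -0.10 without WT replicate 3 and -0.57 in the male libraries.

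Cad, which carries the first 3 activities of pyrimidine synthesis in a single protein (chromosome 5, 31054780 to 31078479, plus strand), had 49.0, 35.8 and 37.8 CPM in the WT libraries. The ΔrsCBE libraries had 36.6, 28.2 and 20.9 CPM. Replicate 1 of ΔrsCBE lay within the WT range and the other ΔrsCBE libraries below it. The log2 fold change was -0.51 with a 95% interval of -1.07 to 0.05 (edgeR FDR 0.551), and -0.16 in the male libraries. In RefSeq, Cad overlaps Atraid (28 counts in all).

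Umps, which completes uridine monophosphate (chromosome 16, 33954782 to 33967038, minus strand), varied most among WT libraries relative to its mean, with 26, 3 and 22 counts or 41.1, 7.17 and 17.0 CPM in replicates 1 to 3. The ΔrsCBE libraries had 30.7, 24.2 and 18.4 CPM, all inside that range. The log2 fold change was 0.15 with a 95% interval of -0.66 to 0.96 (edgeR FDR 0.958), and 0.47 in the male libraries. Its sign changed when WT replicate 2, WT replicate 3 or ΔrsCBE replicate 1 was left out (-0.11, -0.12 and -0.04). Umps overlaps Gm15829 on the opposite strand, which was not among the counted genes.

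**Figure D3:**
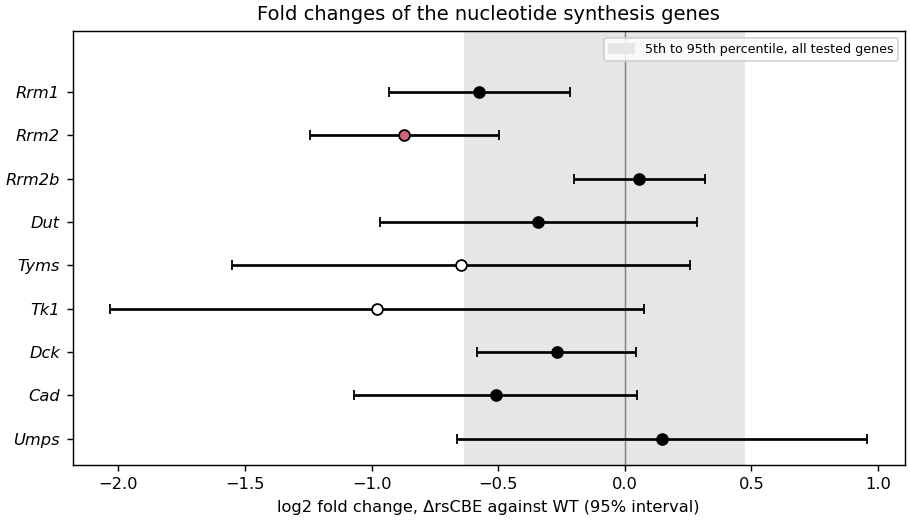
Log2 fold change of ΔrsCBE against WT for the 9 genes with 95% intervals from edgeR, red for an FDR under 0.05, black for other tested genes, open for Tyms and Tk1 from the fit without a count filter. The grey band spans the 5th to 95th percentile of all tested genes (-0.63 to 0.47), and Rrm2 at -0.87 is the only tested member whose estimate lies outside it.

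Per kb of the principal coding transcript, the members split into a high and a low group over all 6 libraries. Dck averaged 58.8 CPM per kb, Rrm2b 54.4, Rrm2 43.2 and Rrm1 35.6 CPM per kb. Dut averaged 13.0 CPM per kb, Tk1 6.98, Umps 6.62, Cad 4.86 and Tyms 3.64 CPM per kb. Only the step from Rrm1 to Dut separated neighbours in this order without overlap of their library values (19.7 CPM per kb at the lowest for Rrm1, 17.0 at the highest for Dut). Rrm1 had 42.97 ± 4.20 CPM per kb in WT and 28.3 ± 7.65 in ΔrsCBE, and Rrm2 had 56.2 ± 2.44 and 30.3 ± 6.60 CPM per kb (SD, n = 3). Levels per kb depend on the length chosen: divided by all annotated exons of the gene, Rrm1 averaged 12.9 and Rrm2b 27.2 CPM per kb, below the 34.2 of Rrm2, and Dut averaged 10.5, close to Rrm1. The split into a high and a low group therefore depends on the principal transcript length.

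Other genes of nucleotide supply were read from the same fit. Of 68 genes listed, 67 were in the table and 40 were tested, and 1 passed the threshold. That count is near the share of all tested genes called (1.69%). Of the 40, 29 were below 0 (48.2% of all tested genes), and the median of the 40 was -0.20 (log2). In the list of other deoxynucleotide and folate genes 0 of 18 tested genes passed (edgeR), and their median log2 fold change was -0.24. Its extremes were Nme7, of the nucleoside diphosphate kinase family, at -0.71 (edgeR FDR 0.461), and the nucleotidase Nt5c at 0.31 (0.919). Samhd1, which breaks down deoxynucleoside triphosphates and was the most abundant gene of this list, had means of 534 ± 72.6 CPM for WT and 615 ± 71.5 CPM for ΔrsCBE (SD over 3 libraries), at a log2 fold change of 0.21 (edgeR FDR 0.581). Dtymk, which phosphorylates thymidylate, had a log2 fold change of -0.58 (edgeR FDR 0.630). Samhd1 and Dtymk were chosen for their function after their values had been seen.

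In the list of other pyrimidine genes 0 of 7 tested genes passed, with values from -0.60 for the CTP synthase gene Ctps (edgeR FDR 0.711) to 0.45 for the uridine kinase gene Uck1 (0.718). Over the 3 nucleotide lists, 3 of the 40 tested genes had an unadjusted edgeR p-value under 0.05, against 10.2% of all tested genes. They were Nme7, Hprt and Gmpr2, and DESeq2 called 0 of the 26 it tested. In the purine list 1 of 15 tested genes passed (1.69% of all tested genes) and the median log2 fold change was -0.07. Gmpr2, which converts GMP back towards IMP, fell from 19.0, 14.3 and 14.7 CPM in WT to 4.72, 3.02 and 3.69 CPM in the ΔrsCBE libraries. The log2 fold change was -2.03 ± 0.50 (standard error), at an edgeR FDR of 0.0304, and it rested on 47 reads in all. Gmpr2 met the count filter only through the WT libraries, where it was higher, so its call cannot be read apart from that filter. Nedd8 and Tinf2 lie across Gmpr2 on the other strand, so its reads are uncertain. The gene was not past the threshold when any single library was left out, with the sex covariate, in the male libraries or with DESeq2.

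Genes of the dividing cell were lower in the same libraries as Rrm2. The list's median was -1.18 (log2) for G2 and mitosis genes. Past the threshold, 0 of its 22 tested genes rose and 18 fell (0.205% and 1.49% of all tested genes). The genes that fell were Ccna2, Bub1b, Cenpf, Ndc80, Kif11, Tpx2, Birc5, Kif23, Bub1, Cenpe, Aurkb, Top2a, Nusap1, Mki67, Cdc20, Plk1, Ttk and Aurka. Of these, Bub1, Ttk and Aurka would not have met the count filter by their ΔrsCBE libraries alone. Their calls, counted in the 18, cannot be read apart from that filter. The summed level of the list was 6713 to 7547 CPM in the WT libraries and 2834 to 4483 CPM in the ΔrsCBE libraries. In a list of S-phase genes 2 of 28 tested genes fell (1.49% of all tested genes) and 24 had a fold change below 0 (48.2%). The median was -0.46, with summed levels of 2481 to 2785 CPM in WT and 1714 to 2286 CPM in ΔrsCBE. The S-phase genes that fell were Pola1, the catalytic subunit of DNA polymerase alpha (log2 fold change -0.82, edgeR FDR 0.0174), and Uhrf1, which carries DNA methylation through replication (-0.70, 0.0214). Among the ΔrsCBE libraries the order of Rrm2, Rrm1 and the S-phase sum was the same, highest in replicate 2 and lowest in replicate 3. Among the WT libraries the S-phase sum had another order: it was highest in replicate 1 (2785 CPM), where Rrm2 (118.5 CPM) and Rrm1 (161.1 CPM) were lowest. The G2 and mitosis sum had the order of Rrm2 in both genotypes. It was 6713, 7547 and 7182 CPM in WT and 2879, 4483 and 2834 CPM in ΔrsCBE replicates 1 to 3. Whether fewer dividing cells or less RNA per cell lay behind these levels cannot be told apart in bulk libraries, and the part of cell division in the Rrm2 result was not tested.

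Genes listed for earlier, dividing precursors were mostly too low to compare. Of 11 genes for pro-B and large pre-B cells, 4 were tested and 0 passed (edgeR; 1 with an unadjusted p-value under 0.05), all 4 with a fold change above 0, and the summed level of the list was 1582 to 1619 CPM in WT and 1637 to 1819 CPM in ΔrsCBE. The surrogate light chain genes Igll1, Vpreb1 and Vpreb2 had 10, 7 and 0 counts over all libraries, and the terminal transferase gene Dntt had 7. The summed level was nearly all Il2ra (means of 662.5 CPM in WT and 720.9 in ΔrsCBE) and Cd93 (867 and 909 CPM), so it does not describe the other genes of the list. Il2ra and Cd93 were abundant in these sorted small pre-B cells of both genotypes. Neither the sum nor the fold changes of Il2ra and Cd93 are therefore a measure of earlier, dividing precursors. The other tested genes of the list were Lef1 and Erg. Lef1 had a log2 fold change of 0.67 (unadjusted edgeR p-value 0.00852, FDR 0.214), and Erg 0.23 (edgeR FDR 0.9045). Whether Lef1 and Erg reflect earlier precursors was not tested.

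**Figure D4:**
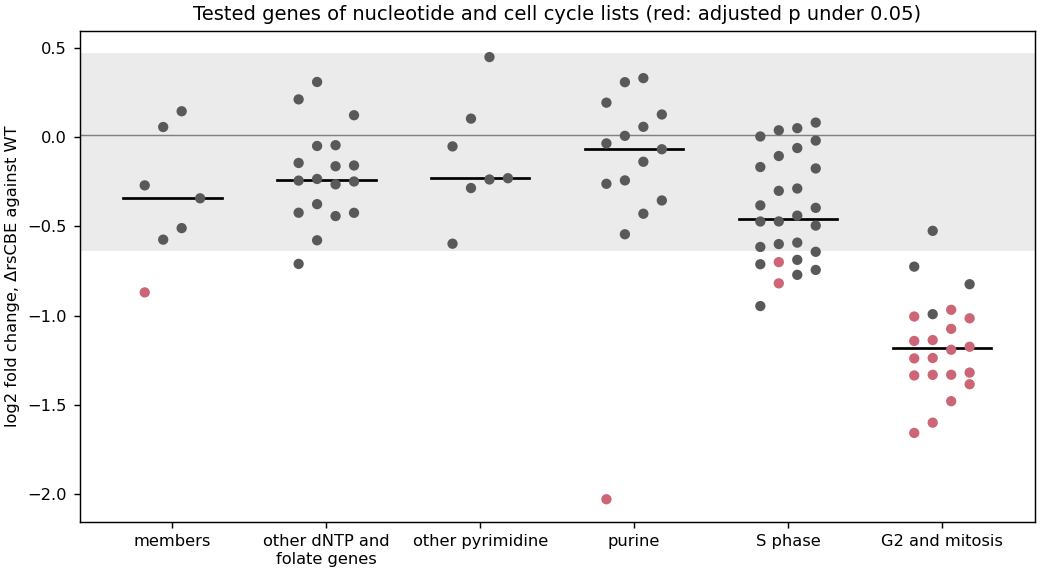
Log2 fold change (vertical axis) of each tested gene of the members and of 5 other lists, red for an edgeR FDR under 0.05, with a black line at each list's median, the median of all tested genes as a thin line and their 5th to 95th percentile in grey. The nucleotide lists centre between -0.34 and -0.07, the S-phase list at -0.46 and the G2 and mitosis list at -1.18.

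Since Rrm2b is a p53 target, other targets of p53 were read beside it. Of 12 tested genes 1 rose, where 0.205% of all tested genes were called higher. It was Plk2, a polo-like kinase gene, with a log2 fold change of 0.78 (edgeR FDR 0.0480), and the median of the list was 0.01. Mdm2, which encodes the ubiquitin ligase that restrains p53, averaged 189 CPM for WT and 211 CPM for ΔrsCBE, with 0.17 as its log2 fold change (edgeR FDR 0.746). Cdkn1a had 33 counts over the 6 libraries and was not tested.

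The genes whose pattern over the 6 libraries was most like that of Rrm2, by Pearson correlation of log2 CPM, were Dnajc9 (r = 0.998), Lmnb1 (0.997), Espl1 (0.996), Phf19 (0.995) and Mdm1 (0.993). These correlations describe 6 points that share the step between genotypes, and carry no test. Phf19 met the count filter only through the WT libraries. Lmnb1, which encodes lamin B1, had means of 822 ± 56.3 CPM for WT and 470.5 ± 84.2 CPM for ΔrsCBE (SD over 3 libraries). Rrm1 had r = 0.949 with Rrm2 and ranked 92 among the tested genes, Cad had 0.769, Dut 0.766 and Dck 0.542. Rrm2b and Umps had r = -0.24 and -0.27, so their libraries did not follow the order of Rrm2.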

How the data were processed

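RNA-seq was made from total RNA of sorted small pre-B cells after removal of ribosomal RNA, with a strand-specific kit, per the labels' protocols. The authors deposited whole-number read counts per gene symbol for 6 libraries, not normalized. The submitters' processing notes name Trim Galore 0.6.10, STAR 2.7.11, HTSeq, DESeq2 and the build mm10, without roles. The annotation, the strand setting of the counting and any filter are not given in the sources used here, so reads of overlapping genes may be shared.

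Columns were matched to samples by library name and grouped by genotype. Genes were kept by filterByExpr (minimum count 10), scaled by TMM and tested with edgeR 4.0.16 (R 4.3.3) by robust glmQLFit and glmQLFTest with genotype as the sole factor, and p-values were adjusted by Benjamini-Hochberg over all 7792 tested genes, with a threshold of 0.05. Standard errors and 95% intervals come from the F statistic. CPM uses TMM-scaled totals, and log2 CPM a prior count of 2. Ratios were compared by exact permutation (scipy 1.17.1). The fit was tested on simulated data. Coordinates and lengths come from GENCODE M21 (GRCm38) and promoters from the RefSeq table, using the first entry of each symbol (27025 symbols).

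Alternatives covered scaling, DESeq2 1.42.0, count filters, the threshold, each library left out, a replicate block and a sex covariate. The comparison of male libraries alone, the exon-union length and the motifs were added later, once values were known. Members and gene lists were chosen with earlier results of these data known. The text names all members, list genes past the threshold, the highest and lowest gene of each nucleotide list (the highest purine gene is not reported here) and the 5 genes most like Rrm2, plus a few chosen later and marked so or used as checks.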

Additional observations from a re-analysis of the deposited data

How the results depend on the processing

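Rrm2 stayed below 0 in all 16 alternatives (log2 fold change -1.04 to -0.73, adjusted p-value 0.000793 to 0.112), and Rrm1 in all 16 (-0.74 to -0.38, 0.0157 to 0.579). The 1 member past the threshold became 2 without a count filter and 2 when 1 CPM in 3 libraries was required, where Rrm1 joined Rrm2, and 0 with the sex covariate. Leaving out 1 library gave 0 to 2 members. The 1 other nucleotide gene became 0 with DESeq2, with the sex covariate, without both female libraries and in each fit that left out 1 library (0 to 0). The 132 genes past the threshold in all became 87 with the sex covariate and 59 to 187 when 1 library was left out, with 59 both without WT replicate 3 and without ΔrsCBE replicate 3. Fits without a library rest on fewer samples, and the cause of the other changes was not tested. Umps moved to 0.796 without WT replicate 1. Signs turned for Rrm2b with the sex covariate (-0.059) and without both female libraries (-0.057), for Umps without WT replicate 2 (-0.109), WT replicate 3 (-0.115) or ΔrsCBE replicate 1 (-0.04), and for Tk1 without both female libraries (0.228). Without both female libraries, as with the sex covariate, ΔrsCBE replicate 1 is the only library that informs the comparison, and it is assumed to vary like WT.

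The replicate numbers did not pair the libraries: deviations from the group means correlated by 0.013, 0.020 and 0.009 for replicates 1 to 3, and not every library correlated best with its own number. With the replicate block 136 genes, 1 member (Rrm2, log2 fold change -0.91) and 1 other nucleotide gene passed, and the log2 ratio differences were 0.958 and -0.276, with an exact sign-flip p-value of 0.25, the smallest for 3 pairs. Both ratios kept their direction in all 9 alternatives. Depth limits Tyms, Tk1, Dut and Umps: the intervals of Tyms, Tk1 and Dut include large decreases and values just above 0, and that of Umps changes either way.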
